A study of Mus musculus with 6 samples.

Results

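The proteasome is the protease that degrades ubiquitin-tagged proteins, and the genes of its subunits, activators and assembly factors were followed here in the epididymal fat pad (eWAT) of mice with and without cancer-associated cachexia. The genes are the protein-coding genes named Psma to Psmg followed by a number, and 50 of the 55039 genes in the count table met this rule. All mice were male C57BL/6 animals, 6 to 7 weeks old when they were assigned to groups. The CAC group (n = 3) had been injected under the skin with Lewis lung carcinoma (LLC) cells, a mouse lung tumor line, and the CONT group (n = 3) with PBS, and eWAT was taken 28 days after injection. Each library came from a separate mouse, and whole tissue was sequenced, so that fewer cells of a type and less RNA per cell cannot be told apart.

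The core of the enzyme, the 20S particle, is a stack of α and β subunit rings with the cutting sites inside, and the 19S cap recognises ubiquitin chains, unfolds the substrate with its ring of ATPases and feeds it in. Interferon gamma induces the catalytic subunits Psmb8, Psmb9 and Psmb10, which take the places of Psmb5, Psmb6 and Psmb7 in newly built particles (the immunoproteasome) and alter which peptides reach MHC class I molecules. In skeletal muscle of cachectic animals, proteasome genes and the atrophy ligases are known to be induced together, and immune cells are a rich source of immunoproteasome subunits in fat.

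Libraries held 15713794 to 25926425 assigned reads, and the 50 genes took 0.359% to 0.470% of them. CONT replicate 1 stood apart, with 30.2% of its reads on the mitochondrial genome against 3.89% to 5.04% in the other libraries, and many values are given without it as well. CONT replicate 2 and CAC replicate 3 held transcripts of male germ cells (summed level of 7 markers, 962 and 1298 CPM, which is reads scaled by depth to a common total, against 4.97 to 21.8 in the other libraries). CPM values were scaled to the effective library size, and 1 CPM stood for 11.2 to 26.5 reads. Of the 50 genes, 48 had reads in enough libraries to be tested, the exceptions being Psma8 and Psmb11. In edgeR's quasi-likelihood fit, 0 of these 48 passed an adjusted p of 0.05, as did 0% of the 17296 genes tested, and the lowest adjusted p among the 48 was 0.301 (Psma6). Without adjustment, 1 of the 48 had a p under 0.05 in the direction of CAC (Psma6), against 6.31% of all genes tested, and 1 in the direction of CONT (Psmb9), against 6.95%. Without CONT replicate 1, 2 of the set had a p under 0.05 in the direction of CAC, against 7.3% of genes tested there, and 0 in the direction of CONT, against 8.28%. With DESeq2, 0 of the 48 and 5.55% of 17292 genes passed the adjusted threshold. All 6 libraries expressed the full set of constitutive subunits, and the fold changes by class are plotted first.

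**Figure D1:**
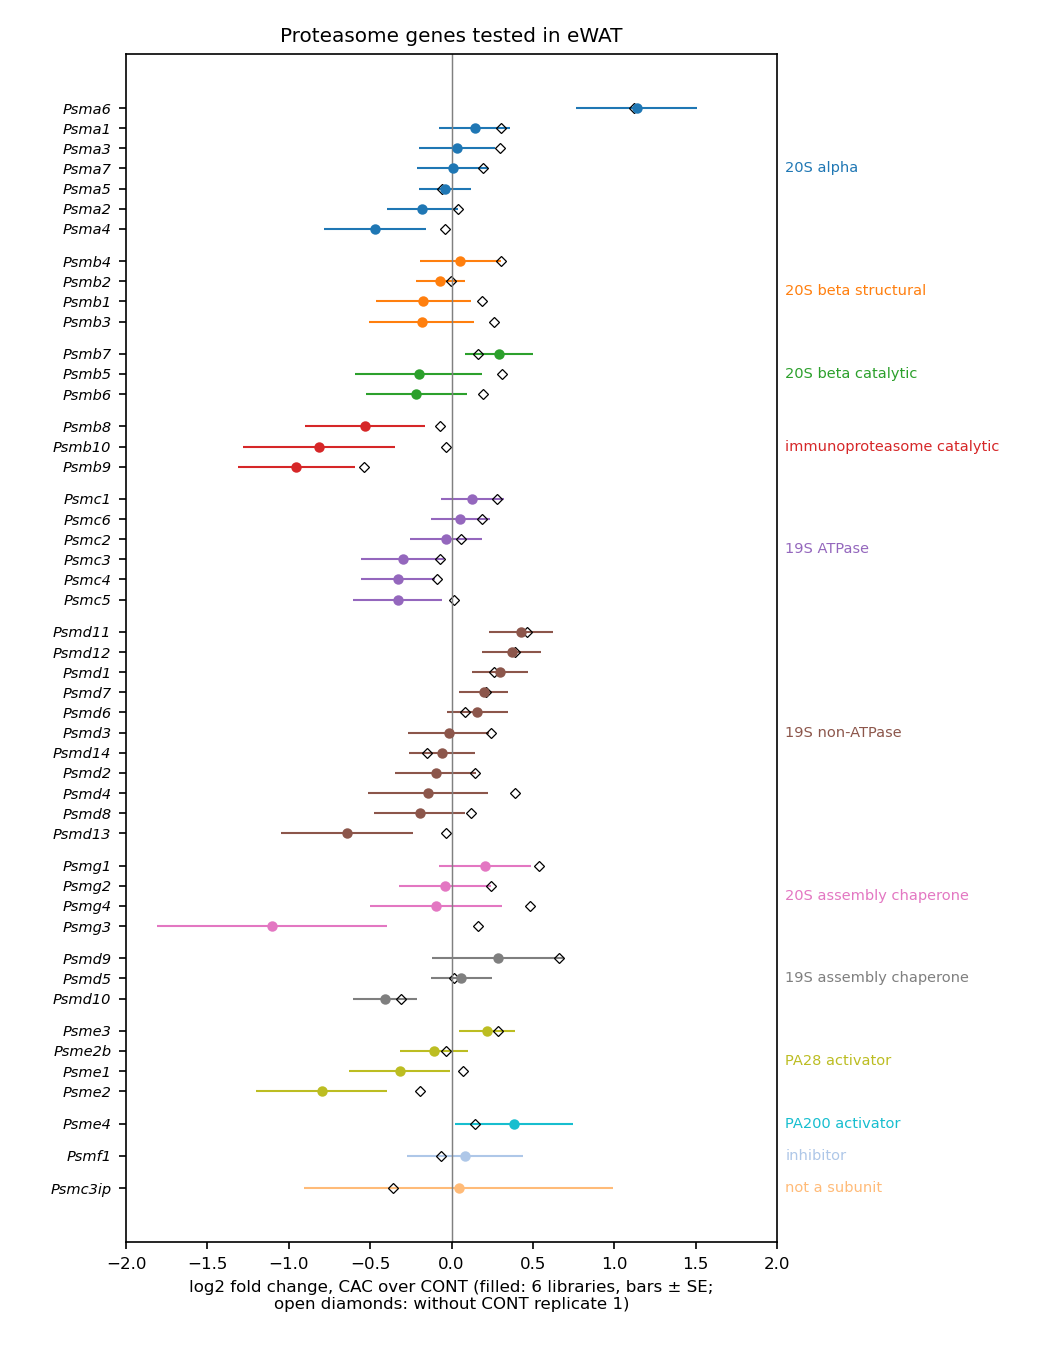
Log2 fold change of CAC over CONT for the 48 tested genes (horizontal axis), grouped by role; filled points with bars are the estimate ± SE from 6 libraries and open diamonds the estimate without CONT replicate 1. Of the constitutive subunits, Psma6 at 1.14 and Psmd13 at -0.64 lie farthest from 0, and most diamonds lie to the right of their points.

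The 31 constitutive subunits of the 20S core and the 19S cap had a median log2 fold change of -0.04, beside -0.06 for all genes tested, and 29 of 31 lay within 0.5 of 0, where 60.3% of all genes tested lay. The estimates for these subunits carried SEs of 0.15 to 0.41, against a median SE of 0.38 over all genes. Their summed level was 4140, 2764 and 2844 CPM in CONT and 3024, 2978 and 3767 CPM in CAC, so that CONT replicate 1 was above every CAC library. In 19 of 31 subunits CONT replicate 1 was the highest library of the 6. Without it the median was 0.19, 24 subunits had a positive fold change and 7 a negative one, where the full set had 13 positive and 18 negative. Without CONT replicate 2 and CAC replicate 3 the median was -0.20 and 8 of 31 subunits had a positive fold change. By edgeR's quasi-likelihood test on each gene, 0 of the 31 passed the adjusted threshold with or without CONT replicate 1. Levels per length, as mean FPKM over the 6 libraries, spanned 14.4-fold, from 8.59 for Psmd11 to 123.5 for Psma6, with a median of 31.5.

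The α ring, which gates entry to the core, had a median log2 fold change of 0.01 over 7 genes. Psma6, the α1 subunit, was the exception. It was at 112, 127 and 113 CPM in CONT and at 155, 215 and 404 CPM in CAC. All CAC values were above all CONT values, and the CAC libraries differed among themselves more than the CONT libraries did. The log2 fold change was 1.14 ± 0.37 (SE), with an unadjusted p of 0.019 and an adjusted p of 0.30 by edgeR's quasi-likelihood test, and an adjusted p of 0.057 by DESeq2. Over all alternatives the adjusted p of Psma6 ranged from 0.0017 to 0.82. Without CAC replicate 3, which had the highest value and the germ cell transcripts, the log2 fold change was 0.67, without CONT replicate 2 and CAC replicate 3 together it was 0.72, and without CONT replicate 1 it was 1.12. The part of germ cell transcripts in the value of CAC replicate 3 was not tested. The other α subunits lay between -0.47 (Psma4) and 0.14 (Psma1). Psma4, the α3 subunit, was at 161, 83.4 and 76.8 CPM in CONT and at 81.1, 70.5 and 79.9 CPM in CAC, and without CONT replicate 1 its log2 fold change was -0.04. Psma5, the α5 subunit, was even across the libraries, at 55.9, 58.2 and 60.9 CPM against 58.6, 49.9 and 61.7 CPM.

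The Psma6 gene lies at chr12:55384222-55418454 on the plus strand of GRCm38, and RefSeq places 2 transcript starts in it. The 250 bases before each start are shown because Psma6 was the constitutive subunit farthest from 0, and the counts per gene do not separate the transcripts. The window before the upstream start (chr12:55383972-55384221) had a GC content of 42.8% and that before the downstream start (chr12:55398575-55398824) 65.6%. Neither window held the interferon gamma element GAS (TTCNNNGAA), the interferon element ISRE (core GAAANNGAA), the antioxidant element ARE (TGACNNNGC) or the GC box (GGGCGG) on either strand, so neither has capitals.
Psma6 upstream start: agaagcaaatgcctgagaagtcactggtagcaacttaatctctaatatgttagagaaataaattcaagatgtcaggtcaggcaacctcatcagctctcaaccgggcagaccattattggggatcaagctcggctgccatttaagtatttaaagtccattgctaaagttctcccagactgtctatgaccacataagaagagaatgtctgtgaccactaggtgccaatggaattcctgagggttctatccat
Psma6 downstream start: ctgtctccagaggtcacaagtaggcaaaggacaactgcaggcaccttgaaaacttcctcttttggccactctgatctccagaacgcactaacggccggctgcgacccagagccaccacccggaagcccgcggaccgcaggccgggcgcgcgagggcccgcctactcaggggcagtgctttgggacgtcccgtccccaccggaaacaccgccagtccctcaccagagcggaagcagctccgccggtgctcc

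The β ring genes that have no cutting site, Psmb1 to Psmb4, had a median log2 fold change of -0.12, and the constitutive catalytic genes a median of -0.20. Without CONT replicate 1 the medians were 0.22 and 0.20. Psmb5, the chymotrypsin-like subunit, was at 159.9, 71.2 and 71.1 CPM in CONT and at 77.3, 69.9 and 115 CPM in CAC. Psmb6, the caspase-like subunit, was at 222, 108 and 118 CPM against 120.5, 122 and 143 CPM. Both were highest in CONT replicate 1. Psmb7, the trypsin-like subunit, had the opposite order, with its lowest level, 48.0 CPM, in CONT replicate 1, 65.7 and 67.9 CPM in the other CONT libraries, and 82.3, 62.4 and 77.5 CPM in CAC. The Psmb7 gene overlaps Nek6 on the other strand, and the library kit does not mark strand.

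The 6 ATPases that form the unfolding ring of the cap had a median log2 fold change of -0.17, and 0.04 without CONT replicate 1. Psmc1, the Rpt2 subunit, was at 172, 133 and 131 CPM in CONT and at 151, 167 and 159.5 CPM in CAC. Psmc5, the Rpt6 subunit, was at 180.0, 97.5 and 105 CPM against 102, 95.9 and 106 CPM. In both genes CONT replicate 1 was the highest library, and without it every CAC library was above the remaining CONT libraries for Psmc1 but not for Psmc5.

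Among the 11 other cap subunits, the groups did not overlap for Psmd1, Psmd7, Psmd11 and Psmd12, each higher in CAC. With Psma6 these made 5 of 48 tested genes above CONT without overlap, where 11.8% of all genes tested were, and Psmb9 and Psmd10 made 2 of 48 below CONT, where 10.7% were, or 22.5% in either direction together. Psmd11, the Rpn6 subunit that clamps the cap to the core, was at 59.9, 55.3 and 57.9 CPM in CONT and at 64.8, 72.0 and 95.7 CPM in CAC (log2 fold change 0.43 ± 0.20, SE). Psmd12, the Rpn5 subunit, was at 56.6, 52.3 and 59.0 CPM against 63.1, 68.7 and 85.3 CPM (0.37 ± 0.18). CAC replicate 3 was the highest library in both, and without it and CONT replicate 2 the log2 fold changes were 0.21 and 0.19. Psmd7, the Rpn8 partner of the deubiquitinase, was at 87.6, 86.2 and 88.1 CPM against 99.99, 99.4 and 100.9 CPM, a difference of 0.20 ± 0.15 that was small but without overlap. Psmd1, the Rpn2 scaffold, was at 89.0, 89.3 and 109 CPM against 119.7, 113 and 121.5 CPM (0.30 ± 0.17). Without CONT replicate 1 the log2 fold changes of Psmd1, Psmd7, Psmd11 and Psmd12 were 0.26, 0.21, 0.47 and 0.39. None of the 4 passed, with edgeR adjusted p-values of 0.41 to 0.59.

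Other cap subunits overlapped between the groups. Psmd14, the Rpn11 deubiquitinase that removes ubiquitin chains, was at 43.4, 54.0 and 55.5 CPM in CONT and at 56.2, 39.7 and 50.9 CPM in CAC. Psmd4, the Rpn10 ubiquitin receptor, was at 255, 108 and 113 CPM against 131, 138 and 161 CPM, with CONT replicate 1 above all others and the CAC libraries above the remaining CONT libraries, and its log2 fold change went from -0.15 to 0.39 without that library. Psmd13, the Rpn9 subunit, had the lowest fold change of the constitutive set, -0.64 ± 0.41, from 175, 66.3 and 71.6 CPM against 67.5, 55.3 and 77.7 CPM. That value rested on CONT replicate 1, and without it was -0.03.

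**Figure D2:**
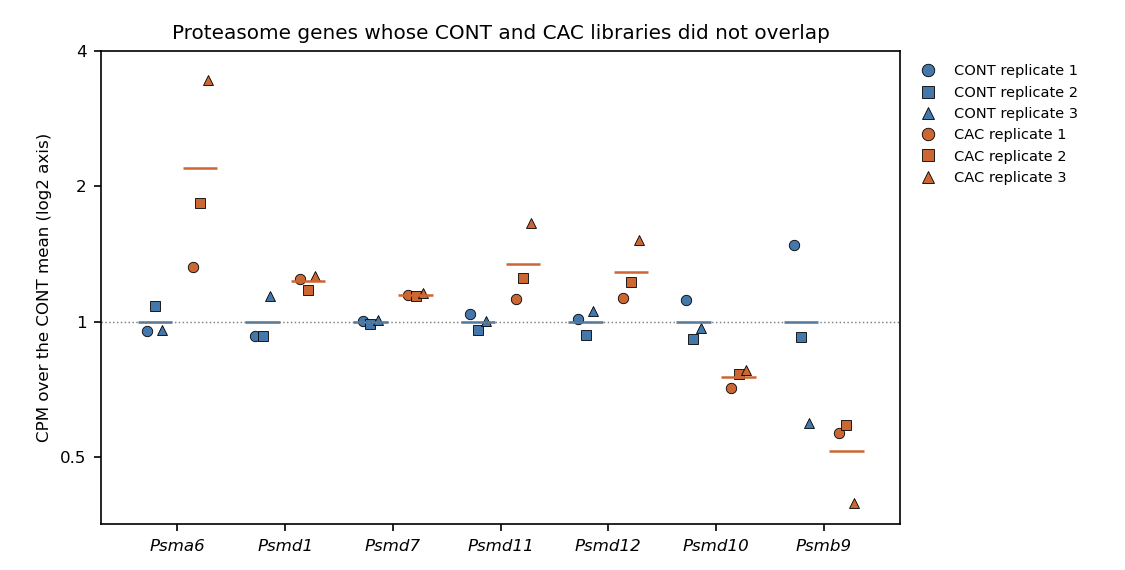
CPM of each library divided by the mean of the CONT libraries (log2 axis) for the 7 genes whose groups did not overlap; blue is CONT, orange is CAC, symbols mark replicates and short lines the group means. Psma6 spans the widest range in CAC, from 155 to 404 CPM, and the 3 CAC libraries of Psmd7 lie together.

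Assembly chaperones hold the partly built particle. Psmd10 (gankyrin), Psmd5 and Psmd9 assist the ATPase ring, and Psmg1 to Psmg4 assist the α ring. Psmd10 was at 22.4, 18.3 and 19.4 CPM in CONT and at 14.3, 15.3 and 15.7 CPM in CAC. Every CAC library was below every CONT library, with a log2 fold change of -0.41 ± 0.20 (SE) and an edgeR adjusted p of 0.42, and it was -0.31 without CONT replicate 1. Psmg1 was at 33.3, 20.7 and 17.4 CPM against 24.2, 29.0 and 29.0 CPM, with a log2 fold change of 0.20, or 0.54 without CONT replicate 1. Psmg3 was at 19.7, 3.72 and 3.84 CPM against 4.23, 4.12 and 4.27 CPM, so that its log2 fold change of -1.10 ± 0.71 rested on CONT replicate 1, and without it was 0.17. All 4 Psmg genes were highest in CONT replicate 1, and their median went from -0.07 to 0.36 without it.

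The immunoproteasome genes had a median log2 fold change of -0.81 over 3 genes, and -0.07 without CONT replicate 1. All 3 were highest in that library. Psmb8, the inducible partner of Psmb5, was at 132, 75.8 and 49.99 CPM in CONT and at 53.3, 72.0 and 52.4 CPM in CAC, and the groups overlapped (-0.53 ± 0.37, edgeR adjusted p = 0.55). Psmb10, the partner of Psmb7, was at 141.5, 47.5 and 44.0 CPM against 46.5, 42.6 and 43.5 CPM (-0.81 ± 0.47, edgeR adjusted p = 0.48). Outside CONT replicate 1, Psmb10 was nearly level over the 5 libraries, and without that replicate the log2 fold change was -0.04. Psmb9, the partner of Psmb6, was at 78.4, 49.1 and 31.5 CPM against 30.0, 31.2 and 20.9 CPM. It was lower in every CAC library than in every CONT library, also without CONT replicate 1, where the gap to the nearest CAC library was narrow. Its log2 fold change was -0.95 ± 0.36, with an unadjusted p of 0.035 and an adjusted p of 0.34 by edgeR's quasi-likelihood test, and -0.54 without CONT replicate 1.

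**Figure D3:**
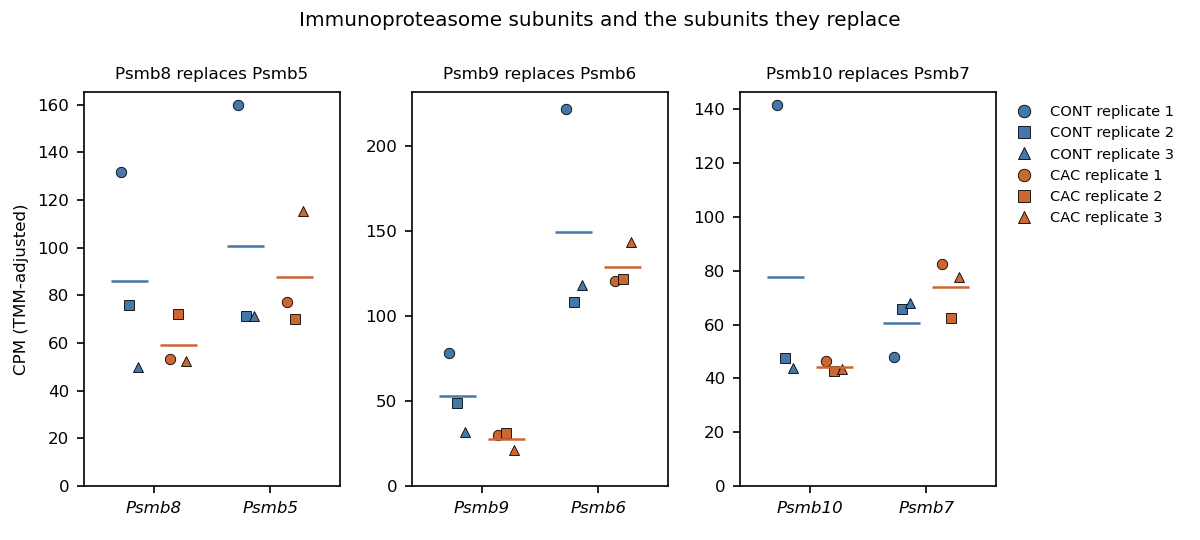
CPM by library (vertical axis) of each immunoproteasome gene beside the constitutive gene it replaces; blue is CONT, orange is CAC, symbols mark replicates and short lines the group means. CONT replicate 1 is the highest point of 5 of the 6 genes, and Psmb9 is the inducible gene whose groups do not overlap.

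Because most subunits were highest in CONT replicate 1, each inducible gene was set against the gene it replaces within the same library. The ratio of Psmb9 to Psmb6, on FPKM, was 0.181, 0.232 and 0.136 in CONT and 0.127, 0.131 and 0.0745 in CAC. All CAC ratios were below all CONT ratios, the log2 difference was -0.73, and it was -0.73 without CONT replicate 1 as well. An exact two-sided permutation test gave p = 0.1, the smallest that 3 against 3 libraries allow, and 0.3 after Benjamini-Hochberg adjustment over the 3 ratios. Without CAC replicate 3 and CONT replicate 2 the log2 difference was -0.28. The ratio of Psmb8 to Psmb5 was 0.271, 0.350 and 0.231 against 0.227, 0.338 and 0.149, with overlapping groups (log2 difference -0.31, exact permutation p = 0.4). That difference ran from -0.60 to -0.014 as single libraries were left out. The ratio of Psmb10 to Psmb7 was 5.92, 1.45 and 1.30 against 1.13, 1.37 and 1.13 (log2 difference -0.89, exact permutation p = 0.2, and -0.19 without CONT replicate 1). Per length, Psmb10 was above Psmb7 in every library, whereas Psmb8 and Psmb9 were below their partners in every library.

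Psmb9 and Psmb8 lie in the MHC region of chromosome 17, and Psmb9 shares its upstream region with Tap1, which encodes a subunit of the peptide transporter of antigen presentation and runs the other way. The RefSeq starts of the pair have 225 bases between them. The window before Psmb9 (chr17:34187331-34187580, minus strand, GRCm38.p6) is printed because both genes lay below CONT without overlap, and that before Psmb8 (chr17:34197945-34198194, plus strand) for comparison. The Psmb8 window lies inside the longer gene of the count table, which begins at base 34197721. Capitals mark the GAS element in Psmb8, 97 to 89 bases before the start, and the GC box in Psmb9, 55 to 50 bases before it.
Psmb8: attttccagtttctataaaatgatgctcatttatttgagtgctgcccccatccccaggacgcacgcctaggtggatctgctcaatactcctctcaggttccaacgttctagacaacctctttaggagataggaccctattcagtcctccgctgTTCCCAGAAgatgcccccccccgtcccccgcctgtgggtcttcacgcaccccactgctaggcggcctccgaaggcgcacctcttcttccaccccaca
Psmb9: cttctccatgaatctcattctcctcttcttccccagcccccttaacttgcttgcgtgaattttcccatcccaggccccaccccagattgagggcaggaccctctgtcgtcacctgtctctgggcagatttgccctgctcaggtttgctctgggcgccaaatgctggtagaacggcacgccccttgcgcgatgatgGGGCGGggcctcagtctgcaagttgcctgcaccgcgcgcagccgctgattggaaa

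Both strands were searched over the 250 bases before each RefSeq start, for the 42 of 50 genes that had an entry (45 windows) and for all 32851 windows. GAS was found in 2 windows of the set (Psmb8 and Psmg1), 4.44%, and in 7.02% of all windows. The ISRE core was found in 6.67% (Psmb3, Psmd4 and Psmd9) and in 7.13% of all, and with a further A at its end in the same 3 genes and in 2.98% of all. ARE was found in 11.1% (Psmb5, Psmb6, Psmc6, Psmd12 and Psmd9) and in 10.2% of all, and the GC box in 51.1% and 32.7%. The window before Psmb10 held none of the 4.

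Tap1 was at 75.5, 87.7 and 50.4 CPM in CONT and at 34.4, 48.7 and 41.1 CPM in CAC. All CAC values were below all CONT values, with a log2 fold change of -0.78 ± 0.26 (SE) and an edgeR adjusted p of 0.31, and it was -0.72 without CONT replicate 1. The annotated genes Psmb9 and Tap1 share 212 bases, which the unstranded reads cannot assign, so their levels are not fully separate measurements. In all, 9 of the 50 genes overlap a gene whose reads came to more than 10% of their own (Psma2, Psmb7, Psmb9, Psmc3, Psmc3ip, Psmd9, Psmd13, Psme1 and Psme2b). The 4 annotated pseudogenes of subunits had 0 to 7 reads in all.

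Among activators that open the α ring, PA28 is made of Psme1 and Psme2, which interferon gamma induces, or of Psme3 in the nucleus. Psme1 was at 186, 108.5 and 88.1 CPM in CONT and at 87.6, 105 and 114 CPM in CAC. Psme2 was at 187, 81.2 and 67.8 CPM against 72.7, 56.4 and 63.8 CPM (-0.80 ± 0.40, edgeR adjusted p = 0.43, and -0.20 without CONT replicate 1). CONT replicate 1 was the highest library in both. Psme2b, a near copy of Psme2 that can share its reads, had a log2 fold change of -0.11, and Psme3 of 0.22.

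Members that belong to the male germ line followed the germ cell markers rather than the groups. Psma8, the α4 variant of spermatogenic cells, was counted with 2, 123 and 4 reads in CONT and with 7, 8 and 111 in CAC. Psmc3ip, a meiotic recombination protein that carries the name without being a subunit, had 12, 181 and 42 reads against 28, 67 and 197, and it overlaps Mlx, which had more reads. Psme4 (PA200), an activator also used in spermatogenesis, was at 51.3, 111 and 88.5 CPM against 84.3, 90.8 and 153 CPM, with the highest value of each group in the library with germ cell transcripts. The inhibitor Psmf1 (PI31) was at 30.3, 55.2 and 34.3 CPM against 31.4, 33.4 and 62.0 CPM, with the same order. The share of these transcripts in the values of Psme4 and Psmf1 was not tested. Psmb11, the thymic cortex subunit, had 0 reads in 4 libraries and 1 in each of the others.

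**Figure D4:**
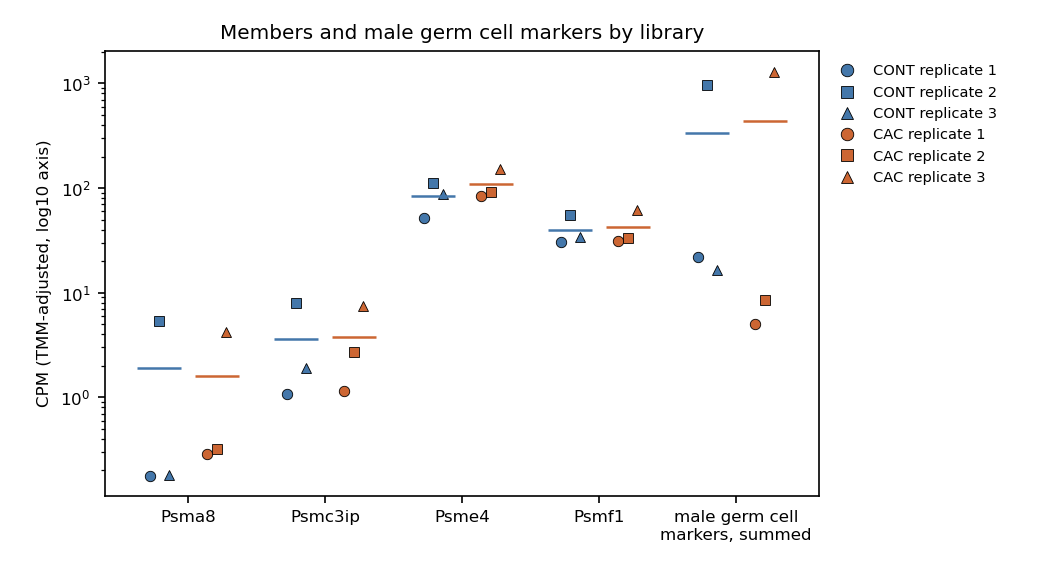
CPM by library (log10 axis) of 4 genes and of the summed male germ cell markers; blue is CONT, orange is CAC, symbols mark replicates and short lines the group means. CONT replicate 2 and CAC replicate 3 are the highest libraries of their groups in all 5 columns.

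Genes that act with the proteasome were described as lists. Of 16 partners (ubiquitin receptors, shuttle factors, deubiquitinases and assembly factors), 0 had an unadjusted p under 0.05 (13.3% of all genes tested had), 2 were above CONT without overlap (11.8% of all genes tested were), and the median log2 fold change was 0.12, or 0.11 without CONT replicate 1. Ecpas, a scaffold that binds the 26S particle, was at 99.7, 105 and 129.7 CPM in CONT and at 133, 169 and 165 CPM in CAC (0.48 ± 0.20). Pomp, which brings the β subunits into the core, was at 236, 85.0 and 86.9 CPM against 85.3, 65.4 and 77.97 CPM, and Sem1, a small cap subunit, was at 166, 73.2 and 61.5 CPM against 64.6, 55.5 and 67.8 CPM. Both were highest in CONT replicate 1.

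Of 6 regulators of proteasome genes, 1 had an unadjusted p under 0.05 in the direction of CAC, as did 6.31% of all genes tested. Without CONT replicate 1 there were 3 (Ddi2, Nfe2l2 and Ngly1), beside 7.3% of genes tested there. The 1 gene in all libraries was Ddi2, the protease that cuts and activates the transcription factor Nfe2l1. Ddi2 was at 48.0, 56.2 and 64.5 CPM in CONT and at 114, 113 and 139.6 CPM in CAC. The groups did not overlap. Its log2 fold change was 1.12 ± 0.20 (SE), with an adjusted p of 0.22 by edgeR's quasi-likelihood test and 2.04e-05 by DESeq2. Over all alternatives the adjusted p of Ddi2 ranged from 1.45e-06 to 0.82, and without CONT replicate 1 its log2 fold change was 1.03. Ngly1, which deglycosylates Nfe2l1, had a log2 fold change of 0.52 ± 0.23 and Nfe2l2, a stress factor, of 0.39 ± 0.18, while Nfe2l1 itself was at 0.05 ± 0.24. In the 6 genes of ubiquitin and its E1 enzymes, 0 had an unadjusted p under 0.05, or 1 without CONT replicate 1 (Rps27a, which encodes ubiquitin fused to a ribosomal protein), and the E1 enzymes Uba6 and Uba1 had log2 fold changes of 0.52 and 0.30, or 0.33 and 0.094 without CONT replicate 1.

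The atrophy ligases and FoxO factors all had positive fold changes in the 12 of 14 genes tested, beside 45.9% of all genes tested, with a median of 0.61. Of the 12, 5 had an unadjusted p under 0.05, all in the direction of CAC, beside 6.31% of all genes tested, and 5 did without CONT replicate 1, beside 7.3% of genes tested there, where Fbxo21 was no longer among them, Foxo4 was, and the median was 0.51. Foxo1, a transcription factor that drives atrophy genes in muscle, was at 99.7, 67.8 and 66.8 CPM in CONT and at 151, 119.6 and 167 CPM in CAC (0.90 ± 0.24, edgeR adjusted p = 0.27). Foxo3 was at 33.4, 51.1 and 62.5 CPM against 86.8, 115 and 86.7 CPM (0.97 ± 0.27). Cblb, a ligase, was at 19.7, 33.9 and 31.8 CPM against 63.4, 56.9 and 37.3 CPM (0.88 ± 0.30). The muscle ligase Trim63 was too low to be tested, as was Fbxo40. Skeletal muscle markers (4 genes) summed to 42.3, 6.35 and 8.14 CPM in CONT and to 44.5, 9.36 and 8.72 CPM in CAC. Their median log2 fold change was 0.91, with 3 positive and 1 negative, and 1.96 without CONT replicate 1. The part of muscle in the levels of this list was not tested.

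The lists next to the immunoproteasome were those of antigen processing and of the interferon gamma response. Of 11 antigen processing genes, 1 had an unadjusted p under 0.05 in the direction of CONT (Tap1), beside 6.95% of all genes tested, and 0 did without CONT replicate 1. Below CONT without overlap were 3 genes, beside 10.7% of all genes tested, and above it 1 (Erap1, which trims peptides, at 0.53 ± 0.30, or 0.27 without CONT replicate 1), beside 11.8%, and the median was -0.19, or -0.21 without CONT replicate 1. B2m, the light chain of MHC class I, was at 1278, 1869 and 1189 CPM in CONT and at 1162, 814 and 798 CPM in CAC, and Tapbp, a peptide loading factor, had a log2 fold change of -0.42 ± 0.23, or -0.21 without CONT replicate 1. Of 17 interferon gamma response genes tested, 10 had an unadjusted p under 0.05 in the direction of CONT and 1 in the direction of CAC, beside 6.95% and 6.31% of all genes tested, with a median of -0.80. Without CONT replicate 1 the counts were 6 and 1, beside 8.28% and 7.3%, and the median was -0.79, whereas that of Psmb8, Psmb9 and Psmb10 went to -0.07. Cd274, which encodes PD-L1, was at 30.3, 30.3 and 23.3 CPM against 14.0, 15.5 and 15.3 CPM (-0.91 ± 0.20). Gbp4, an interferon-induced GTPase, was at 49.1, 62.2 and 33.9 CPM against 18.8, 25.3 and 16.3 CPM (-1.27 ± 0.29). Ifngr1, the ligand-binding chain of the receptor, went the other way, at 143, 166 and 185 CPM against 406, 295 and 308 CPM (1.03 ± 0.23). By edgeR's quasi-likelihood test 0 genes of these 6 lists passed the adjusted threshold. By DESeq2, 7 passed, beside 5.55% of all genes tested by it, and of the genes named here these were Ddi2, Foxo1 (adjusted p = 0.034), Foxo3 (0.031), Cd274 (0.0044), Gbp4 (0.010) and Ifngr1 (0.00038). Over all alternatives the adjusted p of the last 5 ranged from 2.36e-06 (Foxo1) to 0.82.

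**Figure D5:**
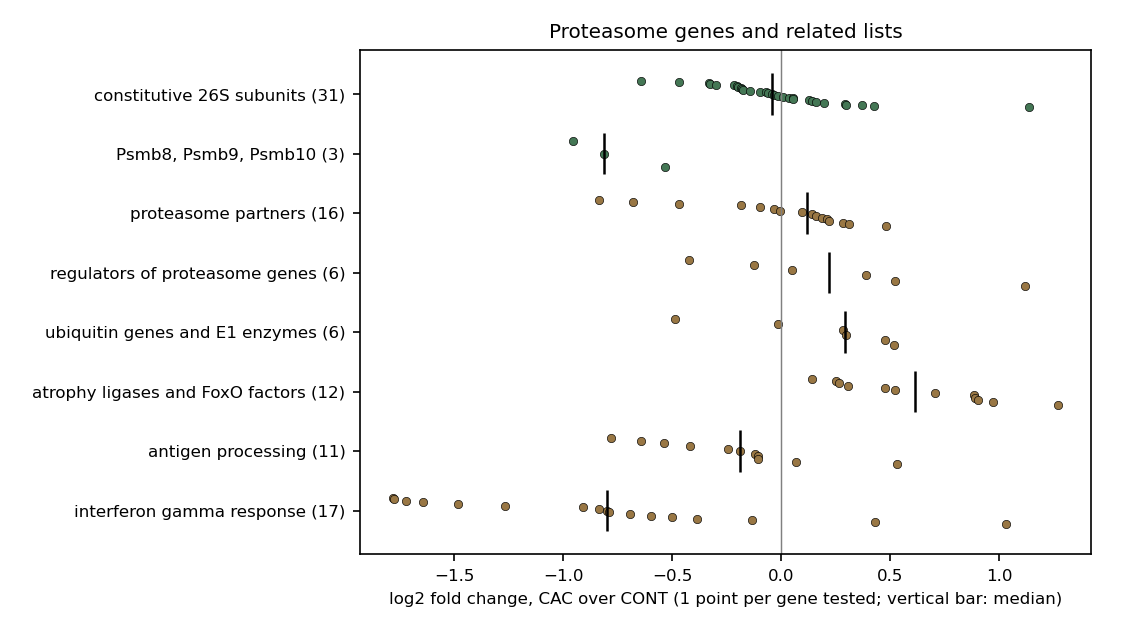
Log2 fold change of CAC over CONT (horizontal axis) of each tested gene in the constitutive subunits, the immunoproteasome genes and 6 related lists; the number of genes stands in brackets and the vertical bar is the median. Medians lie at -0.04 for constitutive subunits, 0.61 for atrophy ligases and FoxO factors and -0.80 for interferon gamma response genes.

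Cell type markers varied beside the immunoproteasome genes. The summed level of 8 macrophage markers was lowest, at 515 CPM, in CONT replicate 1, where Psmb8, Psmb9 and Psmb10 were highest, and was 783 to 1588 CPM in the other libraries. The 7 B and plasma cell markers summed to 53.8 to 93.4 CPM in CONT and to 9.02 to 20.4 CPM in CAC, and 5 of 7 were below CONT without overlap, beside 10.7% of all genes tested. The 10 T and NK cell markers summed to 14.2, 29.1 and 80.7 CPM against 10.02 to 12.6 CPM, and in CONT replicate 3 the marker Klrb1c alone was at 68.3 CPM. The 8 adipocyte markers summed to 52910, 22021 and 23558 CPM against 37724, 16078 and 17923 CPM, again with CONT replicate 1 highest. Fabp4 (22460 CPM) and Lpl (19874 CPM) made up most of the sum in that library, while Adipoq, at 1692 CPM, was lower there than in any other library. The 4 erythroid markers summed to 4987, 241 and 373 CPM against 2325, 1825 and 2266 CPM, with CONT replicate 1 highest as for the immunoproteasome genes. The 6 fibroblast markers had a median log2 fold change of -1.33, and 4 of 6 were below CONT without overlap, beside 10.7% of all genes tested. Dcn was above CONT without overlap, at 973, 780.4 and 824 CPM in CONT and at 1297, 1498 and 1099 CPM in CAC. No defining marker of these 6 lists was at 0 in all libraries. Markers of the epididymis, the organ beside this fat pad, summed to 8793 CPM in CONT replicate 3, 202 CPM in CONT replicate 1 and at most 2.63 CPM elsewhere. The part of these cell types in the levels of the subunits was not tested.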

How the data were processed

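RNA from eWAT of 6 mice was sequenced as poly(A) libraries with a kit that does not mark strand. Per the submitters' processing notes and the study's methods, the authors aligned reads with HISAT2 2.0.5 and counted them per gene with featureCounts 1.5.0-p3 on the Ensembl mouse annotation, and the authors deposited raw counts and FPKM values for each library. The tools were edgeR 4.0.16, DESeq2 1.42.0 and limma 3.58.1, run in R 4.3.3. The main test was the robust quasi-likelihood test of edgeR on TMM-scaled counts, with lowly counted genes removed per group and p-values adjusted by Benjamini-Hochberg over every gene tested, after the scripts were tested on simulated data. FPKM values were used only for levels per length, for ratios and in limma alternatives with pseudocounts of 1 and 0.1. Ratios were tested by exact permutation.

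The rule for the set uses gene names and types and no measured values, but the set, the gene lists and the tests were chosen with earlier results of these data known. All 50 genes of the set are covered, and of each related list the 3 genes with the smallest p were named, except 1 gene that is not reported here; Nfe2l1, Trim63, Fbxo40, Ifng, Rps27a and the markers Klrb1c, Fabp4, Lpl, Adipoq and Dcn, and Fbxo21, Foxo4 and Erap1, were added after their values were seen. DESeq2 with each library left out, and the fit without the libraries holding germ cell transcripts, were chosen after seeing the data, as were the GC box and the shorter ISRE core. Promoter windows are from RefSeq (GRCm38.p6). Groups have 3 mice each, and intervals of read shares would cover counting error only.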

Additional observations from a re-analysis of the deposited data

How the results depend on the processing

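Of 1716 values of 66 genes under 26 alternatives, 1660 kept their direction and side of the threshold, 45 passed it newly and 11 changed sign, counting a sign only where the fold change exceeded its SE in the reported fit. The median log2 fold change of Psmb8, Psmb9 and Psmb10 ranged from -1.08 to -0.068 as single libraries were left out, and was -0.14 with voom sample quality weights and -0.019 by DESeq2 without CONT replicate 1. The median log2 fold change of constitutive 26S subunits was 0.23 by DESeq2 without CONT replicate 1 and -0.20 without CONT replicate 2 and CAC replicate 3. As single libraries were left out, Psmc5 ranged from -0.48 to 0.017, Psme1 from -0.51 to 0.071 and Psmg3 from -1.47 to 0.17. DESeq2 without CONT replicate 1 gave 0.061 for Psmc5, 0.12 for Psme1, 0.21 for Psmg3, 0.0064 for Psma4, 0.011 for Psmd13 and 0.0087 for Psmb10, and voom gave 0.033 for Psme1 and 0.075 for Psmg3. Psmb8 over Psmb5, log2 ratio, was 0.15 without CONT replicate 2 and CAC replicate 3. The causes were not tested.

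For all genes, CAC against CONT, the number passing was 959 by DESeq2, 956 by voom with quality weights, 7 and 8 by limma on FPKM with pseudocounts of 1 and 0.1, and 2104, 627, 861, 1505, 700 and 602 by DESeq2 without CONT replicate 1, 2 or 3 or CAC replicate 1, 2 or 3. For proteasome members, CAC against CONT, it was 2 by DESeq2 without CONT replicate 1 (Psmc1 and Psmg1), 1 without CONT replicate 3 (Psmb9) and 1 without CAC replicate 1 (Psma6). For related gene lists, CAC against CONT, it was 7 by DESeq2, 6 by voom, and 9, 2, 16, 7, 6 and 5 by DESeq2 with the same libraries left out.

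Same-numbered libraries did not deviate together (r of 0.20, -0.26 and -0.28), while CONT replicate 2 and CAC replicate 3 had an r of 0.47. With 3 libraries per group, these values cannot decide whether the numbers pair the mice. With the replicate number as a block, 1 gene in all and 0 members passed, and the immunoproteasome median was -0.58 (median log2 fold change of Psmb8, Psmb9 and Psmb10). Depth, at 11.2 or more reads per CPM, left Psmb11, Trim63, Fbxo40 and Ifng too low to be tested. Psma8 had 123 and 111 reads in CONT replicate 2 and CAC replicate 3 and 2 to 8 in the others. It was not tested in the main fit, but was without CONT replicate 1 (log2 fold change -0.77).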
